A study of Danio rerio with 6 samples.

Results

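The genes described here carry names of DNA replication and cell division genes, and most of them drive or guard these processes. They were measured in the olfactory rosettes, the paired nasal organs of the zebrafish (Danio rerio) that carry the sensory epithelium. They were chosen by name alone: a probe belonged when its gene symbol in the platform annotation began with a stem such as mcm, cdc, cdk, ccna, ccnb, ccnd, ccne, gins, orc, pcna, rfc, rrm, tyms, top2, aurk, plk, bub, mad2, cenp, smc, ncap, anln, chek, e2f, rpa or ezh2, or with that of a DNA polymerase alpha, delta or epsilon subunit. The 4 probes of cdc42 forms were left out, as were 2 probes annotated with several genes. This gave 70 probes of 65 genes. A misread part of 1 array took away 5 of them, and 65 probes of 61 genes were tested among 15611 probes and 5171 named genes. All 65 tested probes were brighter on all 6 arrays than the 95th percentile of the blank spots, the blank threshold below. No reading was saturated.

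The study compared untreated adult fish of 1 to 2 years and mixed sex. Homozygous Rag1 mutants gave 3 samples, and their wild-type siblings gave the other 3. Rag1 is a recombinase gene needed to assemble antigen receptors. Whole rosettes were homogenized, so each sample holds every cell type of the organ, and labelled RNA was hybridised to 1 array per sample in 1 colour. The labels name neither the allele nor the number of fish per sample, and nothing states that each sample is a separate animal or pool. The p-values therefore cover the spread among these 6 samples, which may be technical. In bulk tissue, more cells of a type and more RNA per cell cannot be told apart. One source field calls mutant sample 2 wild type, against its title and strain, which placed it here, and the tissue field of wild-type sample 1 names the olfactory epithelium where the others name rosettes.

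DNA replication starts when the origin recognition complex and its partners load the MCM2-7 helicase onto chromosomes. Kinases then add Cdc45 and the GINS complex, and polymerases copy the strands behind sliding clamps of PCNA. Cyclins and their kinases order these steps and the entry into mitosis, the spindle checkpoint holds chromosome separation until every kinetochore is attached, and E2F factors switch many of these genes on or off. The olfactory epithelium replaces its neurons throughout life from dividing basal cells, so some cells in cycle are usual in it. Some leukocytes and leukocyte precursors divide as well.

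The gene spots were 4.84 to 7.37 times as bright in the median as blank spots, and the share of probes brighter than the blank threshold was 96.3% to 99.5% per array. Arrays of a group had a correlation across probes of at least 0.981, and arrays of different groups of at most 0.973. Levels below are normalized log2 intensities, differences are mutant minus wild type on the log2 scale (n = 3 per group), and a gene is said to rise or fall when limma's p adjusted over all 15611 probes was at most 0.05. A level of 1 probe cannot be set against that of another. The probe of rag1, the mutated gene, read 6.48, 6.71 and 6.64 in wild type and 6.68, 6.74 and 11.92 in the mutants, so that mutant array 3 stood apart from the other 5. The files do not place this probe relative to the mutation, and its level therefore does not check the labels. Of 22 genes listed for mature olfactory neurons 12 were measured, and all 12 passed the blank threshold on every array. Only probes above it on all arrays of at least 1 group were tested, so this was largely fixed in advance. All but 119 of the 5171 genes passed in the same way, and the presence of these neurons is not shown by it. The list also holds gap43 and synaptic genes such as snap25a, which are not particular to these cells.

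Among the cell cycle genes 6 rose in the mutants and none fell. These were the helicase genes mcm3 (2.41-fold) and mcm6 (2.21-fold), the stress-responsive kinase gene plk3 (1.97-fold), the kinetochore gene cenps (1.78-fold), the helicase cofactor gene gins3 (1.64-fold) and the histone methyltransferase gene ezh2 (1.52-fold). They are 6 of 65 probes, where 2.43% of all probes rose and 2.36% fell. At an unadjusted p under 0.05, 25 of the 65 probes were higher and none was lower, against 10.2% and 10.8% of all probes. The sample numbers come from the titles only in part, and a block on them was chosen from these same data. With the sample number as a block, 15 of the 65 probes rose, of 14 genes, where 3.49% of all probes rose and 3.66% fell, and none of the 65 fell. The 9 probes that passed only there belonged to anln, ccnb1, ccnb3, ccnd1 (both probes), cdc25b, cdk1, e2f3 and tyms. The count of 6 was 3, 1 and 1 without wild-type arrays 1, 2 or 3, and 2, 5 and 2 without mutant arrays 1, 2 or 3. It was 0 in limma without both number 2 arrays, when 23 probes had an unadjusted p under 0.05.

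**Figure D1:**
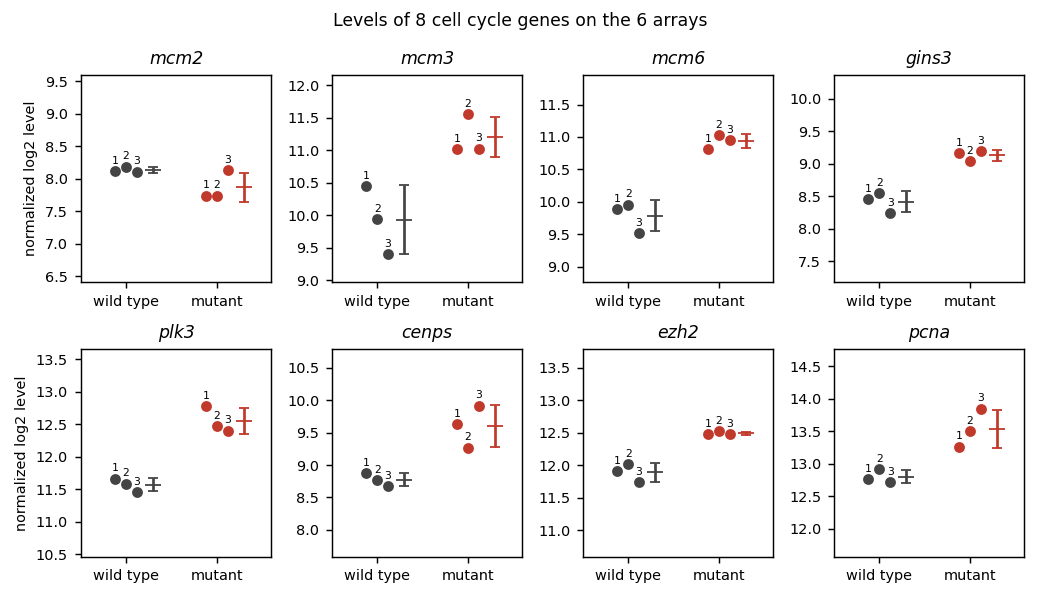
Normalized log2 level of 8 genes (y axis, 3.2 log2 units in every panel) on the 3 wild-type and 3 mutant arrays (points with the sample number); bars give mean and SD. The groups are apart for every gene shown except mcm2, where mutant array 3 lies among the wild-type arrays. Shown are the 6 genes that rose, with pcna and mcm2, so this separation follows largely from the choice of genes.

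Most of the other genes of the set had positive differences too, without passing the test. Of the 61 genes, 11 had symbols outside the role groups below and are called matched by name only. This split was made by symbol, not by function, so that cdk5rap2 is among the 11 and mcm3ap among the 50 others. The 50 had a median difference of 0.39, against 0.01 over all 5171 genes. Counted at 1 probe per gene, 2.78% of all genes rose and 2.17% fell, while an unadjusted p under 0.05 was reached by 11.3% on the higher and 10.4% on the lower side. Of these 50, 44 lay above 0, where 52.5% of all genes did. The 2 groups of arrays did not overlap in 29 of them, with the mutants higher each time, where 13.7% of all genes had higher mutants without overlap and 12.2% lower ones. A difference of at least 0.5 was seen in 19 of the 50 genes and in 8.51% of all genes. The lowest of the 50 was -0.27 and the highest 1.27. The median stayed between 0.32 and 0.44 over 22 alternative settings, those that left out an array included. The 11 genes matched by name only had a median of 0.16 (0.10 without mutant array 2), and none of them passed the test, had an unadjusted p under 0.05 or passed with the block.

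**Figure D2:**
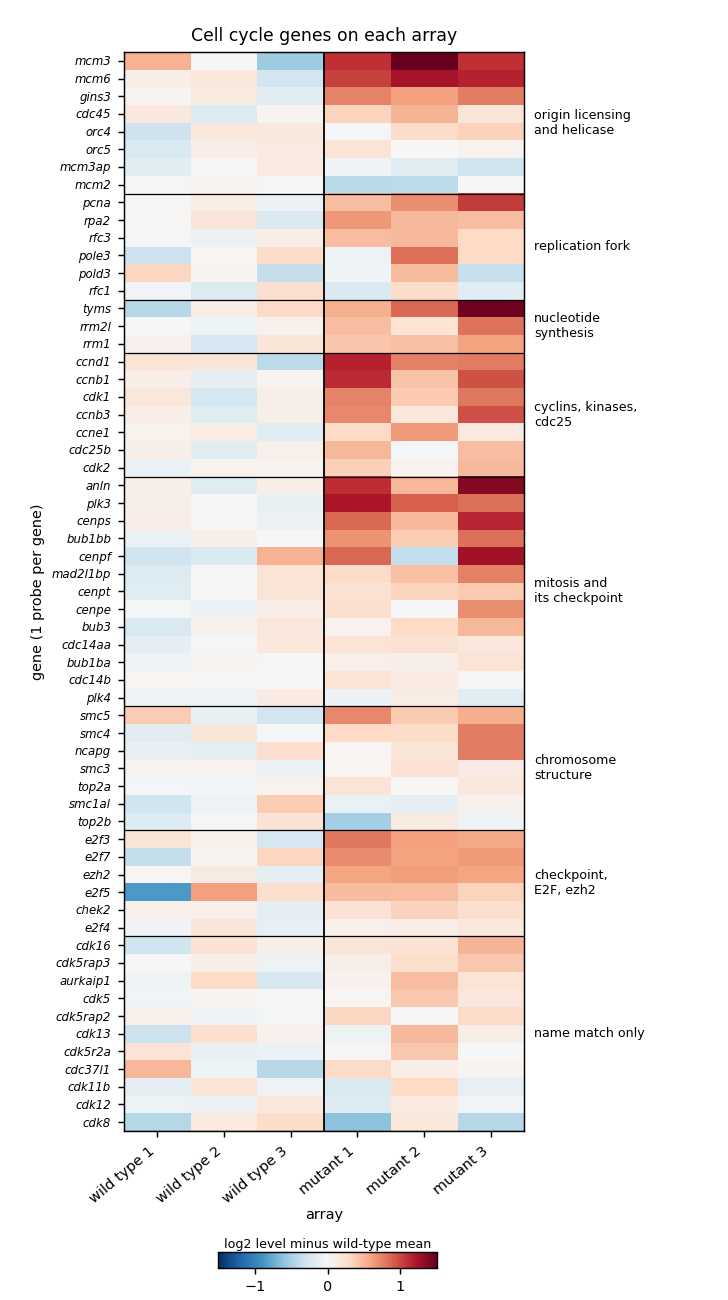
Log2 level of each of the 61 genes on each array minus its wild-type mean (colour, from blue for lower to red for higher, ending at 1.5), with 1 probe per gene and the genes grouped by role. Mutant columns are red in most rows from mcm3 to e2f4 and pale in the lowest block, the genes matched by name only.

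Origin licensing and the replicative helicase gave the 2 highest and also the lowest value among the 50 genes. Of 8 genes in this group 3 rose and none fell, around a median of 0.27. The genes mcm3 and mcm6 encode subunits of the MCM2-7 ring, which unwinds DNA ahead of the polymerases. The level of mcm3 was 10.45, 9.94 and 9.40 on the 3 wild-type arrays and 11.02, 11.56 and 11.03 on the mutant arrays. The wild-type arrays were further apart than the mutant arrays, but no mutant reading reached down to them. The difference was 1.27 (SE 0.28, limma adjusted p = 0.0474), and the call ended without any single array except wild-type array 1 (adjusted p 0.104 to 0.125). It also ended without background correction (0.0758) and with the misread part of wild-type array 2 kept (0.0606). For mcm6 the levels were 9.89, 9.96 and 9.52 in wild type and 10.82, 11.03 and 10.95 in the mutants, 2 tight groups well apart. The difference was 1.14 (SE 0.15, limma adjusted p = 0.0104). This call was kept without any single array and ended only without both number 2 arrays (adjusted p = 0.0939).

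The ring subunit gene mcm2 had a negative value. Its levels were 8.12, 8.19 and 8.11 in wild type and 7.74, 7.74 and 8.13 in the mutants, lower on mutant arrays 1 and 2 and among the wild-type arrays on mutant array 3. The difference of -0.27 (SE 0.14) did not pass (limma adjusted p = 0.354), and it lay between -0.40 and -0.17 over the alternatives. The mcm2 probe was the dimmest of these, as little as 1.76 times above the blank threshold, against 5.30 for mcm6 and 6.18 for mcm3. The gap between the mcm6 and mcm2 readings was wider on every mutant array, at 3.08, 3.29 and 2.82 against 1.78, 1.77 and 1.41 on the wild-type arrays. The 2 differences thus were 1.41 apart, and those of mcm3 and mcm2 were 1.54 apart. These genes are set side by side for their values, the 2 highest and the lowest of the 50, so no test is given. No probe of mcm4, mcm5 or mcm7 was among those analysed here.

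The GINS subunit gene gins3, whose complex completes the active helicase, read 8.46, 8.55 and 8.24 in wild type and 9.16, 9.03 and 9.19 in the mutants, without overlap. It rose by 0.71 (SE 0.13, limma adjusted p = 0.0288), and this call ended when any single array was left out (adjusted p 0.0553 to 0.1). The helicase cofactor gene cdc45 was at 0.34 (SE 0.15) without overlap of the groups but did not pass (limma adjusted p = 0.247). The origin recognition genes orc4 and orc5 were at 0.20 and 0.08. The gene mcm3ap, named for a protein that binds MCM3 and known in human cells for mRNA export, was at -0.18 and counts in this group by its name only.

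At the replication fork none of 6 genes passed the test, though 3 had an unadjusted p under 0.05, and the median was 0.38 (0.24 without mutant array 2). The sliding clamp gene pcna came closest. Its levels were 12.76, 12.91 and 12.72 in wild type and 13.26, 13.50 and 13.85 in the mutants, all mutants higher. The difference of 0.74 (SE 0.17) missed the threshold (limma adjusted p = 0.0563, and 0.0547 with the block). The single-strand binding gene rpa2 was at 0.54 (SE 0.15, adjusted p = 0.0864) and the clamp loader gene rfc3 at 0.42 (SE 0.12, adjusted p = 0.104), both without overlap of the groups. The gene of the large clamp loader subunit, rfc1, was at -0.04 (SE 0.18). The accessory subunit genes of polymerase epsilon and delta, pole3 and pold3, were at 0.35 and 0.02, each with an SE of 0.25.

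The 3 genes that supply deoxynucleotides were all higher on every mutant array than on any wild-type array. None passed the test, and all 3 had an unadjusted p under 0.05. Thymidylate synthase, encoded by tyms, makes the thymidine nucleotide for DNA. Its probe read 7.24, 7.76 and 7.96 in wild type and 8.19, 8.51 and 9.11 in the mutants, without overlap, and lay as little as 1.34 times above the blank threshold. The difference was 0.95 (SE 0.27, limma adjusted p = 0.098), and with the block it passed (adjusted p = 0.0199). The ribonucleotide reductase genes rrm1, for the large subunit, and rrm2l, named for the small one, were at 0.48 (SE 0.15, adjusted p = 0.114) and 0.49 (SE 0.17, adjusted p = 0.153).

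Cyclins, their kinases and the activating phosphatase gene cdc25b had the highest median of the 7 role groups in the main setting. Leaving out 1 array gave 0.47 to 0.77 here and 0.39 to 0.67 for checkpoint and E2F genes, so the ranges overlap. The main median was 0.62 over 7 genes. All 7 lay above 0 at the probes tested (a second cdk2 probe, in the misread part of 1 array, was at -0.46 after repair), and the groups of arrays did not overlap in 5 of them, but none passed without the block, while 4 had an unadjusted p under 0.05. The G1 cyclin gene ccnd1 read 13.36, 13.34 and 12.77 in wild type and 14.32, 13.91 and 13.94 in the mutants at its brighter probe. That difference was 0.90 (SE 0.20, limma adjusted p = 0.0517, and 0.0324 with the block). Its dimmer probe was at 0.69 (SE 0.32, adjusted p = 0.268, and 0.0367 with the block), with overlap. The mitotic cyclin gene ccnb1 read 8.89, 8.65 and 8.83 in wild type and 9.91, 9.22 and 9.74 in the mutants, lowest in each group on the number 2 array. It was at 0.83 (SE 0.19, limma adjusted p = 0.0569, and 0.0301 with the block).

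The mitotic kinase gene cdk1 encodes the partner of cyclin B. Its levels were 10.28, 9.84 and 10.19 in wild type and 10.84, 10.49 and 10.90 in the mutants, so that array 2 was again the lowest of each group. The difference was 0.64 (SE 0.17, limma adjusted p = 0.0832, and 0.0344 with the block). Both probes of ccnb3 gave nearly the same difference, 0.62 (SE 0.21) and 0.63 (SE 0.17), and the dimmer of them passed with the block (adjusted p = 0.0394). The probes of cdc25b were further apart, at 0.31 (SE 0.17) and 0.80 (SE 0.27), and again the dimmer passed with the block (adjusted p = 0.0287). The S phase cyclin gene ccne1 was at 0.36 (SE 0.16) and the S phase kinase gene cdk2 at 0.29 (SE 0.15), and neither passed in either fit.

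**Figure D3:**
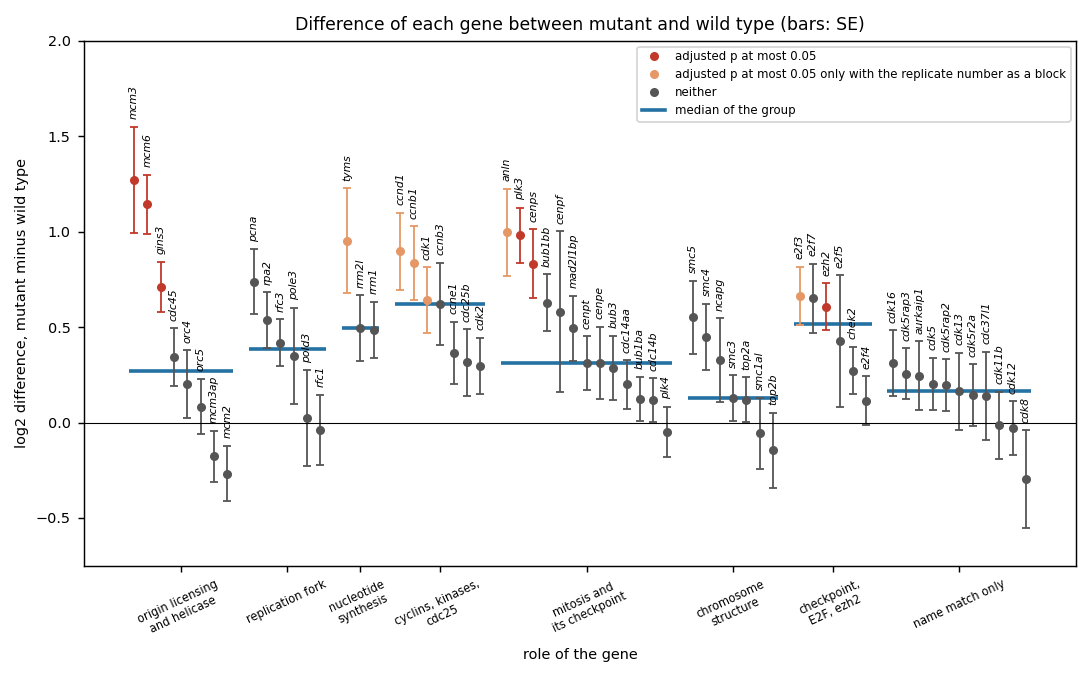
Log2 difference of each of the 61 genes, mutant minus wild type (y axis, points with SE), at the brighter tested probe of each gene and ordered by role (x axis). Red points passed limma's test, orange points passed only with the sample number as a block, and blue lines mark the median of each group, from 0.13 for chromosome structure to 0.62 for cyclins and kinases.

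Of 13 genes of mitosis and its checkpoint 2 rose, none fell and 12 lay above 0, around a median of 0.31 (0.47 without mutant array 2). The polo-like kinase gene plk3, which in mammals responds to stress and growth signals more than to mitosis, read 11.66, 11.59 and 11.46 in wild type and 12.78, 12.47 and 12.40 in the mutants. All 3 mutants were higher by a wide margin. It rose by 0.98 (SE 0.14, limma adjusted p = 0.0136), and the call ended by a little without wild-type array 2 (adjusted p = 0.0505) or 3 (0.0543). Without both number 2 arrays the call ended more clearly (limma adjusted p = 0.119). The related gene plk4, which starts centriole duplication, was at -0.05 (SE 0.13). The kinetochore gene cenps read 8.87, 8.76 and 8.68 in wild type and 9.63, 9.27 and 9.92 in the mutants, with mutant array 2 nearest to wild type. It rose by 0.83 (SE 0.18, limma adjusted p = 0.0455), a call that ended without any array except mutant array 2 (adjusted p 0.0729 to 0.133). It also ended without background correction (0.0681) and with the misread part kept (0.0568).

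Anillin, the scaffold of the contractile ring that divides the cell, had the largest difference in this group. The gene, anln, read 10.57, 10.31 and 10.58 in wild type and 11.60, 10.98 and 11.87 in the mutants, again lowest on the number 2 array of each group. The difference of 1.00 (SE 0.23) missed the threshold (limma adjusted p = 0.055) and passed with the block (0.0257). The spindle checkpoint gene bub1bb was at 0.63 (SE 0.15, adjusted p = 0.0597) and mad2l1bp, whose product switches that checkpoint off, at 0.49 (SE 0.17, adjusted p = 0.154), both without overlap. The kinetochore genes cenpt and cenpe were both at 0.31, and the checkpoint gene bub3 was at 0.29. The gene cenpf was at 0.58 with an SE of 0.42, as mutant array 2 read 8.48, below all wild-type arrays, and mutant array 3 read 10.12. The phosphatase genes cdc14aa and cdc14b were at 0.20 and 0.12. The probe of bub1ba, at 0.12, lay as little as 1.02 times above the blank threshold.

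Chromosome structure genes had the lowest median of the 7 role groups. None of 7 passed, 2 had an unadjusted p under 0.05, and the median was 0.13. The highest was smc5, of the SMC5/6 repair complex, at 0.55 (SE 0.19, limma adjusted p = 0.152), followed by the condensin genes smc4 (0.45, SE 0.17) and ncapg (0.33, SE 0.22). The cohesin genes smc3 and smc1al were at 0.13 and -0.06. Topoisomerase II, which untangles chromosomes, has 2 genes: top2a, the form of dividing cells in mammals, was at 0.12 from a probe only 1.06 times above the blank threshold, and top2b, the form of resting cells and neurons, was at -0.15 (SE 0.20).

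Among the E2F factors, the checkpoint kinase gene chek2 and ezh2, 1 of 6 genes rose and all lay above 0, with a median of 0.52. EZH2 places the silencing mark on histone H3 lysine 27 and is abundant in dividing progenitors. Its gene read 11.91, 12.02 and 11.74 in wild type and 12.48, 12.52 and 12.48 in the mutants, which were nearly identical to each other. It rose by 0.61 (SE 0.12, limma adjusted p = 0.0386), and the call ended when any single array was left out (adjusted p 0.0717 to 0.114). It also ended under median scaling of the arrays (adjusted p = 0.0687), in the authors' deposited table (0.0566) and with an offset of 16 in the background correction (0.0518).

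The activator gene e2f3 read 10.87, 10.76 and 10.44 in wild type and 11.49, 11.30 and 11.27 in the mutants, without overlap. It was at 0.66 (SE 0.15, limma adjusted p = 0.0556, and 0.0373 with the block). The repressor gene e2f7 was at 0.65 (SE 0.18, adjusted p = 0.0924), also without overlap. The genes e2f4 and e2f5 encode factors known for repression in resting cells. The first was at 0.11 (SE 0.13). For e2f5, at 0.43 (SE 0.34), wild-type array 1 read 9.13 against 10.61 and 10.25 on the other two, and without that array the difference was -0.01. The checkpoint kinase gene chek2 was at 0.27 (SE 0.12, adjusted p = 0.267).

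The genes matched by name only include the transcription kinase genes cdk8, cdk11b, cdk12 and cdk13, the neuronal kinase gene cdk5 and its activator gene cdk5r2a. They lay between -0.30 for cdk8 (SE 0.25) and 0.31 for cdk16 (SE 0.17). The 2 probes of cdk13 had opposite signs, 0.16 and -0.14, with SEs of 0.20 and 0.12. The remaining values were 0.26 for cdk5rap3, 0.25 for aurkaip1, 0.20 for each of cdk5 and cdk5rap2, 0.14 for cdk5r2a and cdc37l1, -0.01 for cdk11b and -0.03 for cdk12. The probe of cdk5rap2 lay as little as 1.01 times above the blank threshold.

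Of the 5 probes in the misread part of wild-type array 2, 4 could be read once that array's readings there were moved back by 1 row of spots. This repair was chosen after the data had been seen. The correlation of the readings with those of the other arrays rose by it from 0.241 to 0.981. The GINS gene gins2 was then at 0.34 (SE 0.22, limma adjusted p = 0.448), with mutant array 3 (10.42) below all wild-type arrays. The second probe of cdk2, the brighter of the pair, was at -0.46 (SE 0.22, adjusted p = 0.295), the opposite sign of the first. The condensin gene ncapg2 was at -0.38 (SE 0.17, adjusted p = 0.263), with all 3 mutants below all wild-type arrays, and the ubiquitin-conjugating gene cdc34b was at 0.15 (SE 0.18). The probe of the cyclin gene ccna2 stood in the first row and had no reading to move back. In neither group did all of the other arrays read it above the blank threshold.

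The shift was seen on each mutant array rather than on 1 of them. Relative to the wild-type mean of each gene, the median over the 50 genes was 0.35, 0.37 and 0.49 on mutant arrays 1, 2 and 3, and -0.02, 0.02 and 0.06 on the wild-type arrays. Mutant array 3 was the highest of the 6 in 20 of the 50 genes, mutant arrays 1 and 2 in 11 and 12, and wild-type arrays 1, 2 and 3 in 0, 3 and 4. By role, mutant array 3 led in nucleotide synthesis (0.82), cyclins and kinases (0.78) and mitosis (0.69), while array 2 led in the licensing group (0.39) and at the fork (0.49), and by a little in the other 2 groups. Between arrays of the same number, 44, 42 and 44 of the 50 genes were higher in the mutant for numbers 1, 2 and 3. Of all genes 51.4%, 51.2% and 51.3% were. In 37 of the 50 the mutant was higher in all 3 pairs, where 25.2% of all genes were.

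Replication and mitosis genes that the name rule did not take were examined next, in lists written with earlier results of these data known. Of 18 measured genes listed for S phase none passed, 10 had an unadjusted p under 0.05, all 18 lay above 0, and the median was 0.47. The list reaches beyond replication, to the purine synthesis genes paics and gart and the microtubule gene stmn1a. Of these, paics and stmn1a were among the 10. With the block 207 of all 5171 genes rose and 167 fell, and of the 18 listed genes 2 rose. They were the replisome scaffold gene wdhd1 (0.77, SE 0.19, limma adjusted p = 0.067, and 0.0227 with the block) and rnaseh2a, for a nuclease that removes RNA from DNA (0.66, adjusted p = 0.103 without and 0.0368 with the block). The lowest was nme2b.1, a nucleoside diphosphate kinase gene, at 0.10. Of 29 measured mitosis genes 28 lay above 0, with a median of 0.41. Only 1 rose, where 2.78% of all genes did, namely mis12, of the outer kinetochore (0.64, SE 0.12, limma adjusted p = 0.0306). That call ended when any single array was left out (adjusted p 0.0638 to 0.11). With the block rcc1, which charges the small GTPase Ran on chromatin, rose too (adjusted p = 0.0491). The one below 0 was wee1, the kinase gene that holds CDK1 inactive, at -0.23.

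**Figure D4:**
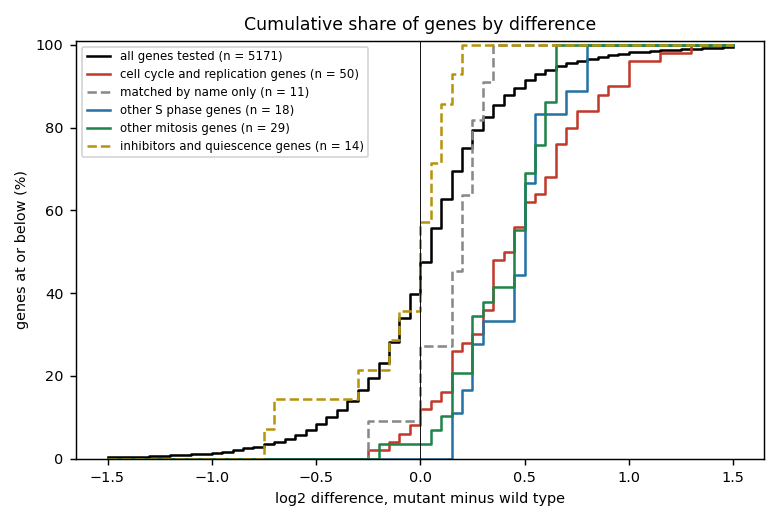
Cumulative share of genes (y axis, %) at or below a given log2 difference, mutant minus wild type (x axis), for all genes and 5 lists. The curves of the cell cycle, other S phase and other mitosis genes lie to the right of all genes, with medians of 0.39, 0.47 and 0.41, and inhibitors lie to the left at the upper end.

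Genes that restrain the cycle or mark resting cells had differences on both sides of 0. Of 14 measured, none passed without the block, 6 lay above 0 and 8 below, and the median was -0.02, or 0.03 at the highest of the alternatives. The 2 with an unadjusted p under 0.05 were both lower, the antiproliferative gene tob1a (-0.74, SE 0.19) and the quiescence factor gene klf2a (-0.78, SE 0.31), and both fell with the block (limma adjusted p = 0.0301 and 0.0243). Of all 5171 genes, 10.4% had an unadjusted p under 0.05 on the lower side, and 167 fell with the block. The CDK inhibitor genes cdkn1ba, cdkn1bb and cdkn1ca were at -0.03, -0.18 and 0.09. The p53 target genes mdm2 and btg2 were at 0.05 and 0.18, and btg2, with an SE of 0.41, was at -0.22 without wild-type array 2. Apart from wdhd1, nme2b.1, mis12, klf2a and btg2, the genes named from these 3 lists were chosen after their values had been seen.

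Markers of several cell types also differed between the 2 groups, some higher and some lower in the mutants, and their part in the result was not tested. Their counts stand against the 2.78% of genes that rose and 2.17% that fell. Of 9 macrophage markers measured 5 rose, and the mean log2 level of the list was 11.31 to 11.71 in wild type and 12.27 to 12.63 in the mutants. Of 7 neutrophil markers 4 rose, with a mean level of 8.75 to 9.01 in wild type and 10.01 to 10.90 in the mutants. The macrophage and neutrophil lists share ncf1, which did not rise, and bulk tissue cannot show which cells the other markers come from. Of 8 red blood cell markers 1 rose, with 8.76 to 9.05 and 9.17 to 9.85. Of 12 genes listed for mature olfactory neurons, general neuronal genes among them, 4 fell, with 11.53 to 11.78 and 10.87 to 11.14. Of 27 genes of progenitors and young neurons none rose and 2 fell, with 10.76 to 10.84 and 10.58 to 10.66. At an unadjusted p under 0.05, 1 of them was higher and 5 were lower. The groups did not overlap for 2 higher genes, ascl1b (0.49, SE 0.18) and dla (0.39, SE 0.18), and for 5 lower ones. Over all genes these shares were 13.7% and 12.2%, and the 2 genes were named after their values had been seen. Of 6 lymphocyte genes 2 fell and none rose, with 8.22 to 8.32 and 7.89 to 8.39. The upper value rests on the rag1 reading of mutant array 3, and without rag1 the ranges of the other 5 were 8.53 to 8.64 and 7.68 to 8.17. Of 14 surface epithelium genes 1 fell, with 12.52 to 12.85 and 12.48 to 12.58, and of 7 glial genes none passed, with 9.53 to 9.71 and 9.68 to 9.85. Every marker measured passed the blank threshold on each of the 6 arrays, except 1 glial gene.

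**Figure D5:**
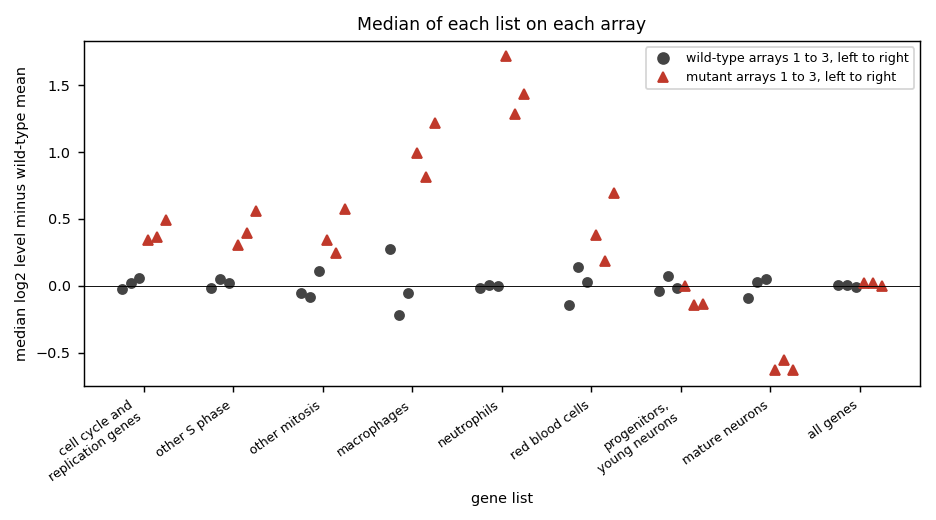
Median over each gene list (x axis) of the log2 level minus the wild-type mean (y axis) on each array, circles for wild type and triangles for mutants. The mutant medians are 0.35 to 0.49 for the cell cycle genes and higher for macrophages and neutrophils. They are -0.14 to -0.002 for the pooled progenitors and young neurons, and below 0 for the mature neuron list.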

How the data were processed

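The deposited scanner tables hold a raw spot intensity and a local background per spot in 1 colour, not corrected or normalized, per the file headers. The deposited series table holds a ratio per probe and array, centred by the authors on each probe's median, judging from the values, and served only as an alternative. The pixel SD of each spot (other) was used only to look for uneven spots. Among the members it reached 0.87 of the spot mean for smc5, 0.74 for rpa2 and 0.67 for mcm6. No spot was left out for it. The sources used here do not name the scanner or its software. Intensities were divided by 100, the number of pixels summed per spot, background was corrected with normexp (offset 50) in limma 3.58.1 (R 4.3.3), and arrays were quantile normalized. Blank spots, control spots named Bac and 1 spot without a row on 1 array were left out. So was a print block of 400 spots, read 1 row off on wild-type array 2 (found by correlation with the other arrays). The spots of the probe printed most often were averaged, and the average was kept as 1 probe. A probe was kept when all 3 arrays of at least 1 group read it above the 95th percentile of their blank spots. Groups were compared with lmFit and eBayes, 2-sided, with Benjamini-Hochberg adjustment over all 15611 probes. Symbols came from the platform annotation, and 68 of the 70 probes had a gene ID in RefSeq of assembly GRCz12tu (not the 2 of cdk13), with no symbol changed. For medians the brighter tested probe stood for a gene, which for cdk2 was the dimmer of its 2 probes, since the other lay in the misread block. The numbers 1, 2 and 3 of the samples come from the titles only in part ("second" in both groups), and the rest follow the order of the sample records. Same-numbered arrays deviated together (r = 0.317, 0.223 and 0.284, against -0.251 to -0.0676 for other pairs), so a fit with the number as a block is given where it changes a call. Deviations were taken from the mean of each group, so a positive r of same-numbered pairs pulls the other pairs below 0. The block was chosen from the same data that it tests. Named were all called genes, the 10 largest differences, the highest and lowest gene of each role and a fixed set (the mcm genes, pcna, tyms, anln, ccnb1, ccnd1 and cdk1), and the other tested genes of the rule are given with their values. The alternatives covered background correction, scaling, the authors' deposited table, the filter, the misread print block, the block on sample number, array weights, several probes per gene, and leaving out arrays. The members, lists, filters and settings were chosen with earlier results of these data known. The fit was tested on simulated data. No promoter, protein or probe sequence was used here.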

Additional observations from a re-analysis of the deposited data

How the results depend on the processing

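The number of arrays limits the precision. Over 22 alternatives the count of called cell cycle probes, 6 in the main setting, ran from 0 to 15, and none was lower in the mutants in any of them. The count was 15 with the sample number as a replicate block, 10 with array weights, 10 with trend and robust eBayes, 10 with the authors' deposited value table, 1 with the misread print block kept and wild-type array 2 left out, 0 without both number 2 arrays, and 1 to 5 when 1 array was left out. Over all probes the count of 747 became 1117 with the replicate block, 80 without both number 2 arrays, 305 with the misread print block kept and wild-type array 2 left out, and 247 to 598 when 1 array was left out. Realigning that print block, or keeping it without wild-type array 2, was chosen after seeing the data.

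The median of all 61 genes (0.31) was 0.24 without background correction and 0.24 to 0.36 when 1 array was left out. For the checkpoint and E2F genes (0.52) it was 0.67 without both number 2 arrays, 0.67 with the misread print block kept and wild-type array 2 left out, and 0.39 to 0.67 when 1 array was left out, and for the fork genes (0.38) it was 0.23 without both number 2 arrays. When 1 array was left out, the fork median ran from 0.24 to 0.44, that of mitosis (0.31) from 0.24 to 0.47 and that of the genes matched by name only (0.16) from 0.10 to 0.21, and without background correction the last was 0.099. Set against 1 SD between arrays, the median moved in 2 alternatives for all 61 genes, in 4 for the checkpoint and E2F genes and in 1 for the fork genes. The medians of mitosis, of the genes matched by name only, of the other roles and of the 3 related lists moved by less than 1 SD.

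Differences of 12 genes, none of them called, changed sign in 24 cases. Leaving out 1 array gave -0.22 to 0.59 for btg2, -0.067 to 0.40 for cdc37l1, -0.17 to 0.088 for cdk11b, -0.12 to 0.052 for cdk12, -0.0065 to 0.73 for e2f5, -0.035 to 0.15 for orc5, -0.13 to 0.012 for plk4, -0.20 to 0.21 for pold3, -0.19 to 0.084 for rfc1, -0.21 to 0.13 for smc1al and -0.29 to 0.038 for top2b. With the misread print block kept and wild-type array 2 left out, btg2 was at -0.22 and cdk11b at 0.083. Without both number 2 arrays, cdk5r2a was at -0.041 and pold3 at -0.18. For pold3 the value was -0.016 with median scaling and -0.015 in the authors' deposited value table. The cause of these changes was not tested.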
